A study of Mus musculus with 7 samples.

Results

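Genes named Zfp and a number encode proteins with zinc fingers, small folds held by a zinc ion. The rule took each row of the FPKM table that carries such a name and has a mean of 2 FPKM or more over the 4 siRNA libraries (FPKM divides the fragments of a transcript by its length and by the library's mapped total). It gave 210 rows of the 13376 in the table, with 216 Zfp names between them, out of 288 rows with a Zfp name at any level. Of the 210 rows, 201 carry a single name and 9 are merged with other names. The value of a merged row, such as Cntf,Zfp91 or Phospho1,Zfp652, cannot be assigned to one of its genes.

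The prefix is a naming convention for mouse zinc finger genes and not a single gene family. Many of these proteins carry tandem C2H2 fingers that read DNA, and many of those also carry a KRAB domain. The KRAB domain binds the corepressor Trim28, which brings the histone methyltransferase Setdb1 to silence retroelements and imprinted loci. KRAB zinc finger genes arose by repeated duplication and lie in clusters of near copies. Others of the name act on RNA, ribosomes, the mitotic spindle or corepressor complexes.

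The cells were C2C12, a mouse myoblast line that proliferates as muscle precursors and can be switched to differentiation. Proliferating cells received siRNA against the long noncoding RNA lnc-31 (2 libraries, called knockdown in the labels) or scrambled siRNA (2 libraries, called control). In a separate experiment biotinylated antisense probes recovered RNA from C2C12 cells, with probes labelled specific (ODD), called lnc-31 probes here because the siRNA names that RNA (1 library), or with lacZ probes labelled aspecific (1 library), and 1 input library was not analysed here. Nothing in the labels says that the libraries of a group are separate cultures. The p-values therefore reflect only how far these libraries differ, a spread that may be technical.

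Sequencing depth is unknown. The muscle lineage markers Myod1, Myf5, Des, Cdh15 and Myog were at 35.2 to 209 FPKM in every library, and Pax7 had no row. Of 10 markers of other cell types 1 had a row (Cd68, mean 1.39 FPKM). Myod1, Des, Cdh15 and Myog were themselves higher with lnc-31 siRNA (log2 fold changes 0.36, 0.24, 0.25 and 0.73, each past the test described below), while Myf5 had -0.10 and did not pass. Myog kept its call with each library left out, Myod1 kept it only without lnc-31 siRNA 1, and Des and Cdh15 lost it in all 4 fits. The part of this shift in the Zfp differences was not tested. In bulk RNA, fewer cells of a type and less RNA per cell cannot be told apart. The row that names Mir31, the microRNA of the lnc-31 locus, had a log2 fold change of -0.14 (limma adjusted p = 0.38), so the table does not show a fall of the targeted RNA, and the groups are named by their labels. Over all rows lnc-31 siRNA 1 stood apart on the first principal component (41.4% of the variance), with a score of 39.1, against -16.3 to -10.4 for the other libraries. Over the Zfp rows the first component (68.7%) set the groups apart, with scores of 1.21 and 1.34 for lnc-31 siRNA and -1.001 and -1.54 for scrambled siRNA. Other rows of like level were not compared in this way, so the separation cannot be called particular to Zfp rows.

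Few Zfp genes differed between the siRNA groups. Of the 210 rows, 6 rose and 10 fell with lnc-31 siRNA at a Benjamini-Hochberg adjusted p under 0.05 (limma on log2(FPKM + 1), 1 fit over all 11500 rows that averaged at least 1 FPKM). This is 7.62% of the Zfp rows, against 12.4% called among all rows tested, where 5.64% were higher and 6.78% were lower. The median log2 fold change of the Zfp rows was -0.018, against -0.0067 over all rows. Their fold changes were small: 143 of 210 (68.1%) stayed under 1.1-fold on the log2(FPKM + 1) scale, against 61.9% of all rows, and 1 row (0.476%) reached 1.5-fold, against 2.03%. That scale shrinks changes at low levels, and the median level was 6.54 FPKM for Zfp rows, against 14.2 for all rows tested. The groups did not overlap, with lnc-31 siRNA higher, in 58 Zfp rows (27.6%, against 28.5% of all rows tested), and with lnc-31 siRNA lower in 59 (28.1%, against 31.7%). Each of these counts was close to or below its background. With 1 library left out, fewer rows were called, both among the Zfp rows and among all rows tested. Of the called Zfp rows only Zfp664 kept its call in each of those 4 fits. Its log2 fold change there was -0.63 to -0.49.

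**Figure D1:**
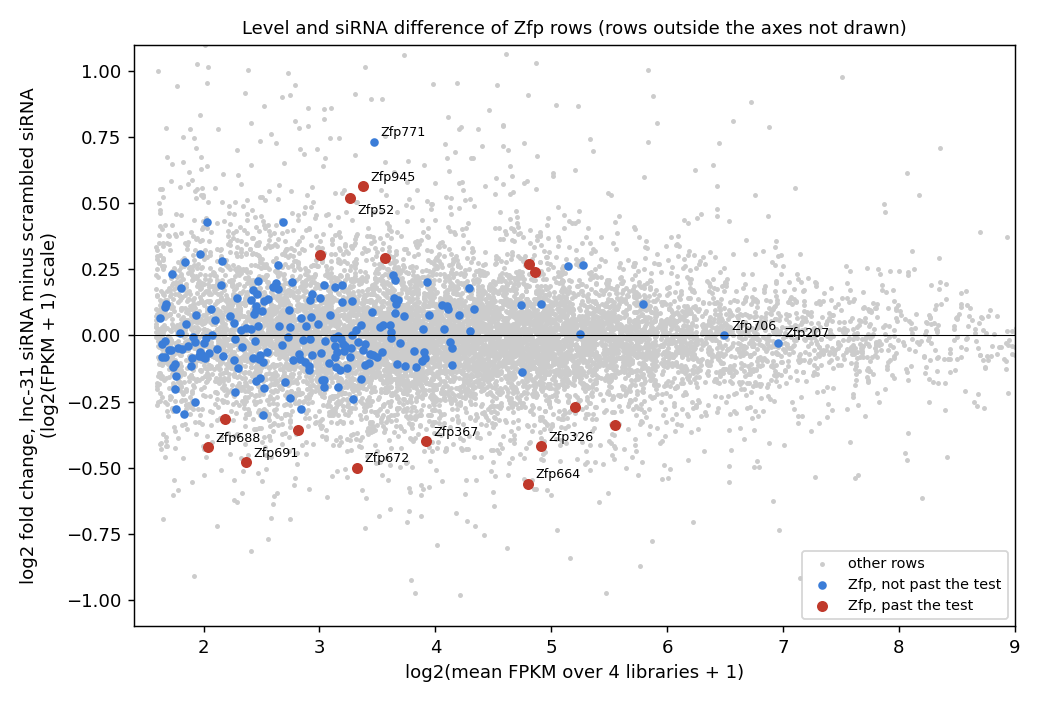
Log2 fold change (lnc-31 siRNA minus scrambled siRNA, vertical axis) against the log2 of the mean FPKM + 1 over 4 libraries (horizontal axis) for rows that averaged at least 2 FPKM. Grey points are other rows, blue points Zfp rows that did not pass the test and red points the 16 that did; most Zfp rows lie low on the level axis and close to 0 on the difference axis.

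The Zfp genes were expressed at low levels. The median of their mean FPKM was 6.54, against 16.3 for all 10568 rows that averaged at least 2 FPKM. A mean between 2 and 5 FPKM was found for 81 rows, between 5 and 10 for 74, between 10 and 20 for 40, between 20 and 50 for 12 and above 50 for 3. The rows just above the limit were Zfp667 (2.09), the merged row Gm28557,Rslcan18,Zfp708 (2.12) and Zfp799 (2.12), and those just under it were Zfp37 (1.98), Zfp442 (1.95) and Zfp85 (1.90). Among the 195 Zfp rows between 2 and 20 FPKM 10 were called (5.13%), against 11.3% of all rows in that range. The median standard error of the fold change there was 0.072 for Zfp rows and 0.069 for all rows, and the median level 6.12 against 8.42 FPKM. Among the 15 Zfp rows at 20 FPKM or more 6 were called (40.0%), against 15.4% of all rows at that level. These 6 include the merged rows Cntf,Zfp91 and Phospho1,Zfp652, and 15 rows are too few to set abundant Zfp genes apart. The highest was Zfp207, which encodes a spindle protein (BuGZ) that binds the checkpoint protein Bub3. It was at 122 and 121 FPKM with lnc-31 siRNA and 123 and 126 FPKM with scrambled siRNA (log2 fold change -0.03, limma adjusted p = 0.67). Zfp706, a small zinc finger protein, was at 87.8 and 90.3 FPKM with lnc-31 siRNA and 88.5 and 89.6 FPKM with scrambled siRNA, and the groups overlapped. Zfp740 was at 55.1 and 58.2 FPKM with lnc-31 siRNA and 50.4 and 53.9 FPKM with scrambled siRNA (log2 fold change 0.12, adjusted p = 0.20).

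The promoters of Zfp945 and Zfp52, which rose, and of Zfp664 and Zfp367, which fell, are shown to compare their sequence. Each runs from 250 bases before to 50 bases after a transcript start in the RefSeq promoter table (GRCm38.p6), 5′ to 3′ on the gene's strand. For Zfp52 and Zfp945 that start lies inside the annotated gene span and not at its edge. Capitals mark the letters of an Sp/KLF motif (GGGCGG), an ETS motif (CCGGAAGT), an E2F motif (TTTCCCGC or TTTGGCGC) or a muscle E-box (CAGCTG), each on either strand. The windows are chr17:22867085-22867384 (minus strand) for Zfp945, chr17:21535289-21535588 (plus) for Zfp52, chr5:124862455-124862754 (plus) for Zfp664 and chr13:64153150-64153449 (minus) for Zfp367.
Zfp945: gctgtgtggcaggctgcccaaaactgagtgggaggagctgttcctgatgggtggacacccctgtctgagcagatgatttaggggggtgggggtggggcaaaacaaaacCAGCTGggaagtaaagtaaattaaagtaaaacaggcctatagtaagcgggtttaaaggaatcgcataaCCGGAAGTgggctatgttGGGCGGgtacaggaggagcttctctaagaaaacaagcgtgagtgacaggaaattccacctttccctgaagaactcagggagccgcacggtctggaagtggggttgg
Zfp52: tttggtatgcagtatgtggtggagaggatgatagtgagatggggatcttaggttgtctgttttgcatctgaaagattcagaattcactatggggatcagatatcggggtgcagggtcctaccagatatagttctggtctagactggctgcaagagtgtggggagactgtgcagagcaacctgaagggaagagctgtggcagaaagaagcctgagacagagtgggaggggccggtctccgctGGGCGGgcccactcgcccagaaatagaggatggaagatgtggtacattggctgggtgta
Zfp664: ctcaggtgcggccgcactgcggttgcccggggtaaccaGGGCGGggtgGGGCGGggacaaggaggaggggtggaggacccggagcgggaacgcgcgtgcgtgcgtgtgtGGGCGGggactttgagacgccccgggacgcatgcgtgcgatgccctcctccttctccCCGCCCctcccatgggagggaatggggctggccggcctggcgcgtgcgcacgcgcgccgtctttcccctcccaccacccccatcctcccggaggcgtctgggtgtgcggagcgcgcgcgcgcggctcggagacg
Zfp367: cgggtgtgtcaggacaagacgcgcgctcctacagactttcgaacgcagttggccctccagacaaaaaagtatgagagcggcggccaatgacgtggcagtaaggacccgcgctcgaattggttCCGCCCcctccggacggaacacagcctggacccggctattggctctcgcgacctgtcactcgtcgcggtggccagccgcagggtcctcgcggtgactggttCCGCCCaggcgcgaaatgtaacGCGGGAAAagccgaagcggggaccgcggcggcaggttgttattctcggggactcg

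The 2 steepest rises among the called rows belonged to members of one gene cluster on chromosome 17 (Zfp945 at 22846697 to 22867309 and Zfp52 at 21533725 to 21563362, GRCm38.p6). Zfp945 was at 11.7 and 11.02 FPKM with lnc-31 siRNA and at 7.60 and 7.15 FPKM with scrambled siRNA (log2 fold change 0.56, SE 0.062, limma adjusted p = 0.0093). Zfp52 was at 10.2 and 10.4 FPKM with lnc-31 siRNA and at 7.01 and 6.75 FPKM with scrambled siRNA (log2 fold change 0.52, SE 0.056, adjusted p = 0.0088). In both genes each lnc-31 siRNA library lay above both scrambled siRNA libraries. Both calls held in every alternative but the one without scrambled siRNA 2, where the adjusted p was 0.053 for Zfp945 and 0.051 for Zfp52.

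The other rises were smaller. Zfp281, a DNA-binding regulator known from embryonic stem cells, was at 11.9 and 12.2 FPKM with lnc-31 siRNA and 9.57 and 9.71 FPKM with scrambled siRNA (log2 fold change 0.29, limma adjusted p = 0.025). Zfp9 was at 7.86 and 7.90 FPKM with lnc-31 siRNA and 6.15 and 6.24 FPKM with scrambled siRNA (0.30, adjusted p = 0.029). In both the libraries of each group were close together and the groups well apart. Zfp330, which encodes a nucleolar protein, was at 28.2 and 31.3 FPKM with lnc-31 siRNA and 24.2 and 24.7 FPKM with scrambled siRNA (0.27, adjusted p = 0.045). Zfp365, which encodes a centrosomal protein, was at 29.9 and 31.1 FPKM with lnc-31 siRNA and 26.2 and 25.1 FPKM with scrambled siRNA (0.24, adjusted p = 0.033). In these 4 genes too every lnc-31 siRNA library was the higher. Zfp281, Zfp9 and Zfp365 lost the call with any 1 library left out (adjusted p = 0.082 to 0.14), and Zfp330 kept it without lnc-31 siRNA 1 (0.048) and lost it in the other 3 (0.14 to 0.16).

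Zfp664 (chromosome 5, 124862705 to 124888630) fell the most. It was at 21.0 and 22.1 FPKM with lnc-31 siRNA and at 30.6 and 33.9 FPKM with scrambled siRNA (log2 fold change -0.56, SE 0.063, limma adjusted p = 0.0094). Zfp672 was at 7.28 and 7.31 FPKM with lnc-31 siRNA and at 10.6 and 10.9 FPKM with scrambled siRNA (-0.50, SE 0.054, adjusted p = 0.0087). The groups were separate in both, and Zfp672 lost its call without scrambled siRNA 2 (0.054). Zfp326 encodes a subunit of the DBIRD complex, which joins transcript elongation to splicing. It was at 25.1 and 24.6 FPKM with lnc-31 siRNA and at 32.8 and 34.3 FPKM with scrambled siRNA (-0.42, SE 0.046, adjusted p = 0.0091), and its call too was lost without scrambled siRNA 2 (0.057).

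Zfp367 (chromosome 13, 64133022 to 64153199) was at 11.8 and 12.3 FPKM with lnc-31 siRNA and at 16.4 and 16.1 FPKM with scrambled siRNA (log2 fold change -0.40, limma adjusted p = 0.012). The row Cntf,Zfp91 joins a ciliary neurotrophic factor gene to Zfp91, a ubiquitin ligase of the alternative NF-kappa-B pathway. It was at 39.6 and 41.3 FPKM with lnc-31 siRNA and 50.6 and 52.3 FPKM with scrambled siRNA (-0.34, adjusted p = 0.013). Both rows lost the call without lnc-31 siRNA 1 (0.051 and 0.052), scrambled siRNA 1 (0.068 and 0.063) or scrambled siRNA 2 (0.063 and 0.076), and kept it without lnc-31 siRNA 2. The row Phospho1,Zfp652 joins a phosphatase of bone mineralization to Zfp652, whose human counterpart is a transcriptional repressor. It was at 32.3 and 32.6 FPKM with lnc-31 siRNA and 39.3 and 39.3 FPKM with scrambled siRNA (-0.27, adjusted p = 0.017). In all 3 rows both lnc-31 siRNA libraries were below both scrambled siRNA libraries.

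The remaining falls were in rows of low level. Zfp691 was at 3.42 and 3.18 FPKM with lnc-31 siRNA and 4.61 and 5.397 FPKM with scrambled siRNA (log2 fold change -0.48, limma adjusted p = 0.030). Zfp688 was at 2.30 and 2.74 FPKM with lnc-31 siRNA and 3.83 and 3.59 FPKM with scrambled siRNA (-0.42, adjusted p = 0.042). In both genes the libraries of a group differed more than in those above, and the groups were still apart. Zfp46 was at 5.10 and 5.26 FPKM with lnc-31 siRNA and 6.66 and 7.20 FPKM with scrambled siRNA (-0.36, adjusted p = 0.029). Zfp239, also known as Mok2, a protein that binds DNA and RNA, was at 3.13 and 2.999 FPKM with lnc-31 siRNA and 4.03 and 4.07 FPKM with scrambled siRNA (-0.31, adjusted p = 0.046). These 4 rows and Phospho1,Zfp652 lost their calls with any 1 library left out (adjusted p = 0.061 to 0.16). With the replicate number as a block Zfp688 (0.058) and Zfp239 (0.061) lost theirs.

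**Figure D2:**
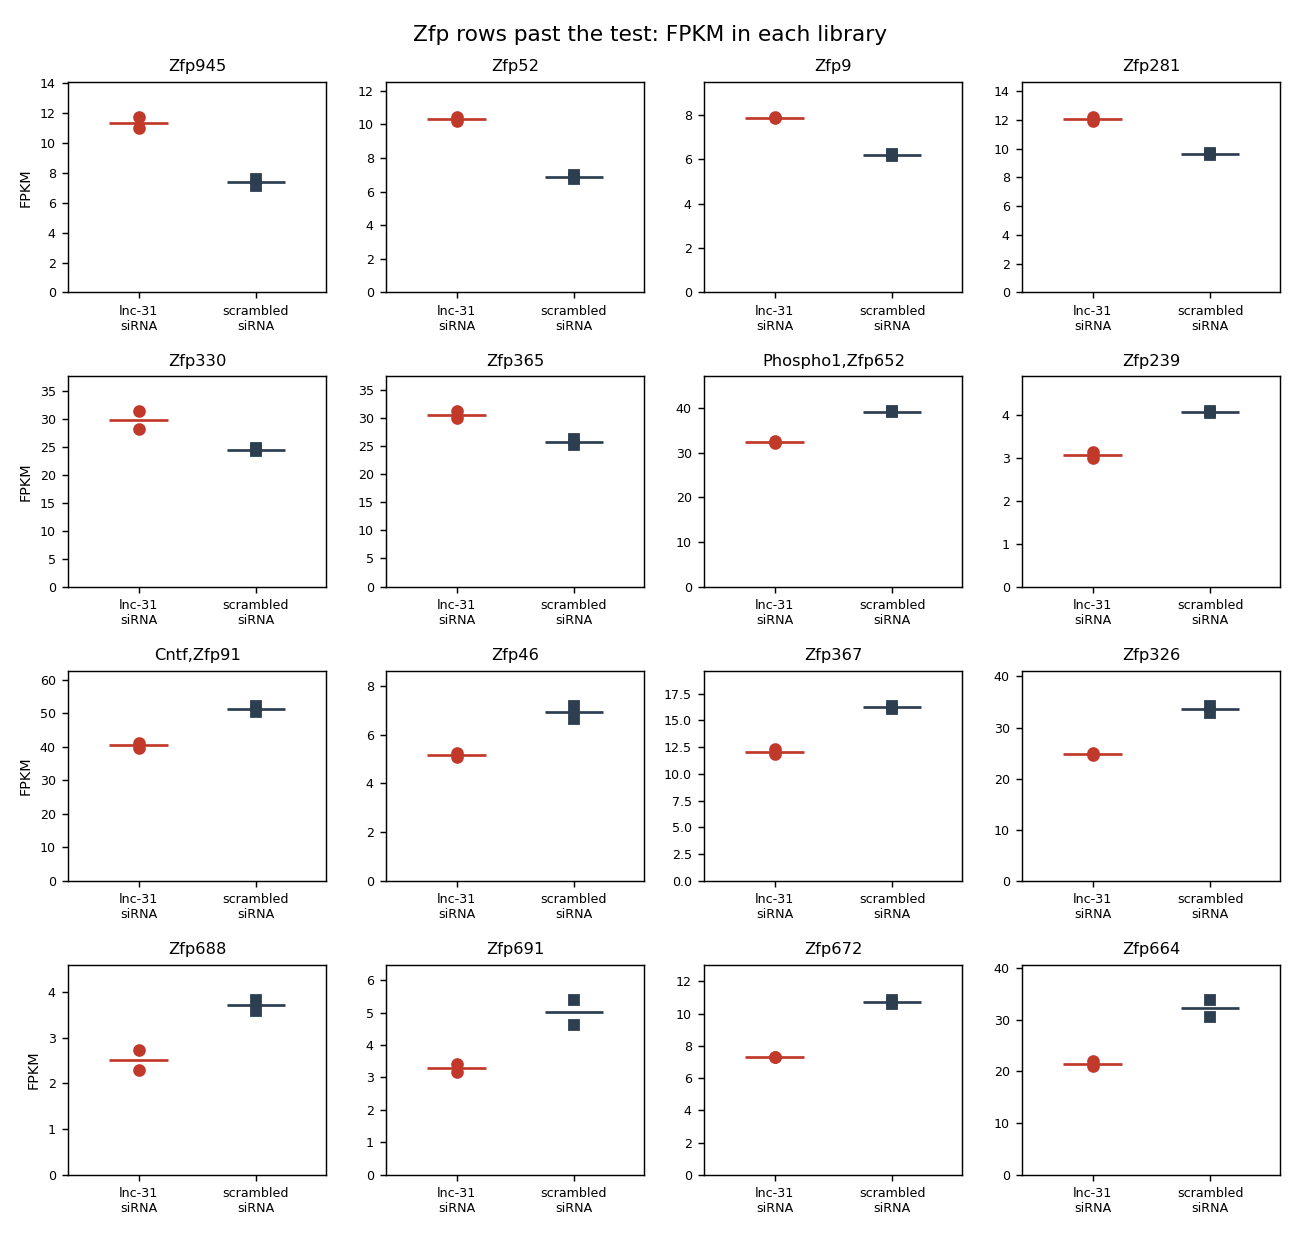
FPKM (vertical axes, from 0) in each lnc-31 siRNA library (red circles) and each scrambled siRNA library (dark squares) for the 16 Zfp rows past the test, with a line at each group mean (n = 2 each). The panels run from the highest log2 fold change (Zfp945) to the lowest (Zfp664), and in no panel do the groups overlap.

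The highest fold change of all Zfp rows did not pass the test. Zfp771, named here after its values were seen, was at 10.1 and 15.6 FPKM with lnc-31 siRNA and at 8.77 and 5.80 FPKM with scrambled siRNA (log2 fold change 0.73, SE 0.24, limma adjusted p = 0.11). The groups did not overlap, but the libraries of each group lay far apart. Its log2 fold change was 0.44 to 1.03 with 1 library left out, with no call in any of the 4 fits. At an unadjusted p under 0.05, limma had 49 of the 210 rows. The share of all rows under that limit was not computed, so this count says nothing particular to Zfp rows.

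By role, no list of Zfp genes had more than 1 member called in a direction, where 5.64% of all rows were called higher and 6.78% lower. The lists have 2 to 8 members, too few for such counts to set a role apart. Of 6 Zfp genes that act on RNA, translation or ribosome assembly, 1 fell (Zfp326), none rose and 5 did not pass, with a median log2 fold change of 0.01. Zfp622, which acts in late maturation of the large ribosomal subunit, was at 34.5 and 40.8 FPKM with lnc-31 siRNA and 32.2 and 30.0 FPKM with scrambled siRNA (0.26, limma adjusted p = 0.11). Its groups did not overlap, and lnc-31 siRNA 2 was the highest library. Zfp622 passed without lnc-31 siRNA 1 (0.38, adjusted p = 0.049) and was at 0.15 without lnc-31 siRNA 2. The double-stranded RNA binding protein gene Zfp346 was at 20.1 and 19.3 FPKM with lnc-31 siRNA and 17.99 and 16.6 FPKM with scrambled siRNA (0.18, adjusted p = 0.10). Zfp36 encodes tristetraprolin, a CCCH protein that starts the decay of AU-rich mRNAs. It was at 10.6 and 10.2 FPKM with lnc-31 siRNA and 11.6 and 10.3 FPKM with scrambled siRNA (-0.06, adjusted p = 0.60), and the groups overlapped.

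The close relatives of Zfp36 carry a letter in their names and are not Zfp rows by the rule, but they went in opposite directions. Zfp36l1 was at 12.5 and 12.2 FPKM with lnc-31 siRNA and 9.38 and 8.03 FPKM with scrambled siRNA (log2 fold change 0.47, limma adjusted p = 0.023). Zfp36l2 was at 92.2 and 88.6 FPKM with lnc-31 siRNA and 130.2 and 122 FPKM with scrambled siRNA (-0.47, adjusted p = 0.0080). Neither gene's groups overlapped. The call of Zfp36l2 held with each library left out (adjusted p = 0.025 to 0.045), while that of Zfp36l1 held in that test without scrambled siRNA 1 (0.039) and was lost in the other 3 (0.074 to 0.082).

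Of 8 sequence-specific regulators of housekeeping and growth genes 1 rose (Zfp281), 1 fell (the row Cntf,Zfp91) and 6 did not pass (median -0.04). Zfp384, a regulator studied in bone, was at 26.6 and 26.9 FPKM with lnc-31 siRNA and 24.6 and 24.7 FPKM with scrambled siRNA (log2 fold change 0.11, limma adjusted p = 0.14), and Zfp64 had -0.12 (adjusted p = 0.22). Of 8 members of chromatin corepressor complexes 1 fell (the row Phospho1,Zfp652) and 7 did not pass (median 0.03). Zfp532 and Zfp592, whose human counterparts bind the chromatin reader ZMYND8, had log2 fold changes of 0.31 (adjusted p = 0.058, and 0.038 with a constant prior) and -0.17 (adjusted p = 0.14). Zfp217, a CoREST partner in human cells, had 0.18 (adjusted p = 0.12). No member passed among 5 genes of mitosis and genome maintenance (median -0.03), which include Zfp207 and Zfp335 (0.19, adjusted p = 0.080), the SUMO ligase gene Zfp451 (-0.06, adjusted p = 0.72) and Zfp830 (0.03, adjusted p = 0.77).

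The genes that silence imprinted loci and retroelements did not pass the test. The list had 6 members with a median log2 fold change of 0.00. Zfp809, which silences retroviruses in mouse embryonic cells, was at 5.83 and 5.75 FPKM with lnc-31 siRNA and 4.21 and 5.13 FPKM with scrambled siRNA (log2 fold change 0.27, limma adjusted p = 0.13). Zfp57 and Zfp445, which protect imprints in the mouse embryo, had 0.13 (adjusted p = 0.36) and -0.12 (adjusted p = 0.20). Zfp961 had -0.10 (adjusted p = 0.43). Of the 6 genes of mesenchymal, adipocyte and neural development 2 reached 2 FPKM. Zfp703, which encodes a corepressor, was at 40.8 and 41.7 FPKM with lnc-31 siRNA and 37.5 and 30.96 FPKM with scrambled siRNA (0.27, adjusted p = 0.11). Zfp703 passed without scrambled siRNA 1 (0.40, adjusted p = 0.046) and was at 0.13 without scrambled siRNA 2. Zfp503 had -0.07 (adjusted p = 0.56). The 4 genes studied in muscle or heart did not pass: Zfp637 (0.12, adjusted p = 0.24), Zfp260 (0.10, 0.29), Zfp422 (-0.12, 0.21) and Zfp106 (0.01, 0.96), an RNA-binding protein needed for muscle and motor neuron upkeep.

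A further list joined KRAB corepressor genes to general heterochromatin and DNA methylation genes. In it Trim28 and Setdb1, through which KRAB proteins act, did not pass the test, while 4 heterochromatin and DNA methylation genes fell. Of 23 genes of this list, none of them a Zfp row, those 4 fell, 1 rose and 18 did not pass, where 6.78% of all rows were called lower and 5.64% higher. The median log2 fold change of the list was -0.07, against -0.0067 over all rows. Trim28 itself was at 122 and 126 FPKM with lnc-31 siRNA and 123 and 124 FPKM with scrambled siRNA (log2 fold change 0.01, limma adjusted p = 0.93). Setdb1 had -0.06 (adjusted p = 0.55), and for both genes the groups overlapped. Those that fell were the histone methyltransferase gene Suv39h1 (-0.32, adjusted p = 0.013), the maintenance DNA methyltransferase gene Dnmt1 (-0.25, 0.022), its cofactor gene Uhrf1 (-0.25, 0.023) and the heterochromatin protein gene Cbx5 (-0.18, 0.039). Suv39h1 was at 25.4 and 25.7 FPKM with lnc-31 siRNA and 32.0 and 32.4 FPKM with scrambled siRNA, and Dnmt1 was at 29.3 and 29.03 FPKM with lnc-31 siRNA and 34.9 and 34.7 FPKM with scrambled siRNA. The nucleosome remodeller gene Chd3 rose (0.19, adjusted p = 0.037), and Suv39h2 (-0.24, 0.051) did not pass. Suv39h2 passed in 4 alternatives (a pseudocount of 0.1, the filter at 2 FPKM, quantile normalization and a constant prior), with adjusted p = 0.047 to 0.0499. In a recount chosen after seeing the data, all 4 genes that fell lost the call in each of the 4 fits with 1 library left out. Their log2 fold changes there were -0.33 to -0.31 (Suv39h1), -0.25 to -0.24 (Dnmt1), -0.28 to -0.22 (Uhrf1) and -0.20 to -0.17 (Cbx5). Chd3 lost its call in each of these 4 fits (adjusted p = 0.11 to 0.16). With a constant prior variance Chd3 (0.078) and Cbx5 (0.081) were lost too.

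**Figure D3:**
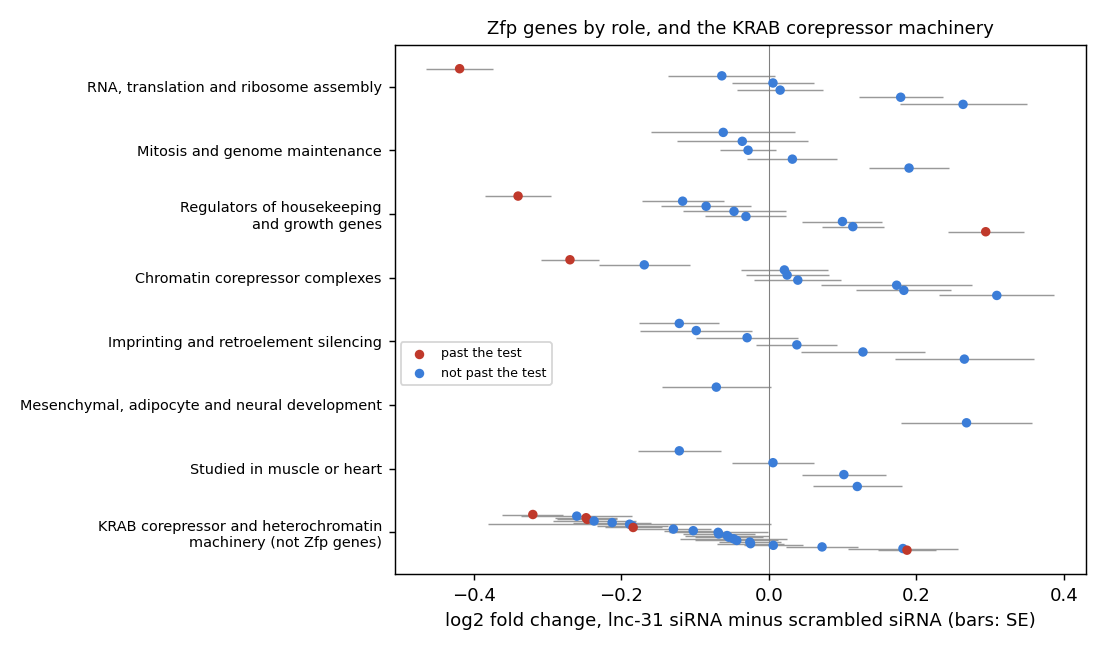
Log2 fold change (horizontal axis, lnc-31 siRNA minus scrambled siRNA) with its standard error for Zfp genes by role and for the KRAB corepressor and heterochromatin genes (lowest line). Red points passed the test; a gene in 2 lists is drawn in both, and the red points stand at -0.42 (Zfp326), -0.34 and 0.29 (Cntf,Zfp91 and Zfp281), -0.27 (Phospho1,Zfp652) and, in the lowest line, -0.32 to 0.19.

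Many Zfp genes lie in clusters, and the largest one held Zfp945 and Zfp52. Chromosome 7 carried 47 of the 210 rows and chromosome 17 carried 32. With neighbouring Zfp rows joined when less than 500 kb apart, 76 rows fell into 11 clusters of 4 or more rows, of which 2 rose and 1 fell. Another 89 rows stood alone by this rule, of which 3 rose and 7 fell. Zfp genes under 2 FPKM and zinc finger genes of other names were not counted as neighbours. A lone row may therefore still lie near other zinc finger genes. Over all rows 5.64% were called higher and 6.78% lower, and the difference between clustered and lone rows was not tested. The median level was 5.06 FPKM in these clusters and 8.16 FPKM for the lone rows. The largest cluster spans 2.59 Mb on chromosome 17 (21008941 to 23599755, GRCm38.p6) and holds 17 rows, Zfp160 to Zfp13. Its median log2 fold change was 0.08, with Zfp945 and Zfp52 called. In 9 of its 17 rows both lnc-31 siRNA libraries were above both scrambled siRNA libraries, and in 1 row both were below, against 28.5% and 31.7% of all rows tested. Its median was 0.058 to 0.12 with 1 library left out. Within it Zfp54 had log2 fold change 0.28 (limma adjusted p = 0.080, and 0.046 with a constant prior), Zfp946 had 0.21 (0.12) and Zfp51 had 0.20 (0.11), while Zfp53, which lies between Zfp51 and Zfp52, had -0.02 (0.91; -0.09 to 0.06 with 1 library left out). A second cluster of 9 rows on the same chromosome (32765496 to 33631716) had a median of -0.08 with no row called. That median was -0.087 to -0.050 with 1 library left out, lowest in size without scrambled siRNA 2, and -0.11 with a pseudocount of 0.1. Its groups were separate in 1 row upward and 5 downward. Zfp54, Zfp946, Zfp51, Zfp53 and the clusters were singled out after their values were seen. Near copies within a cluster can share reads, and the authors' treatment of such reads was not given in the sources used here.

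**Figure D4:**
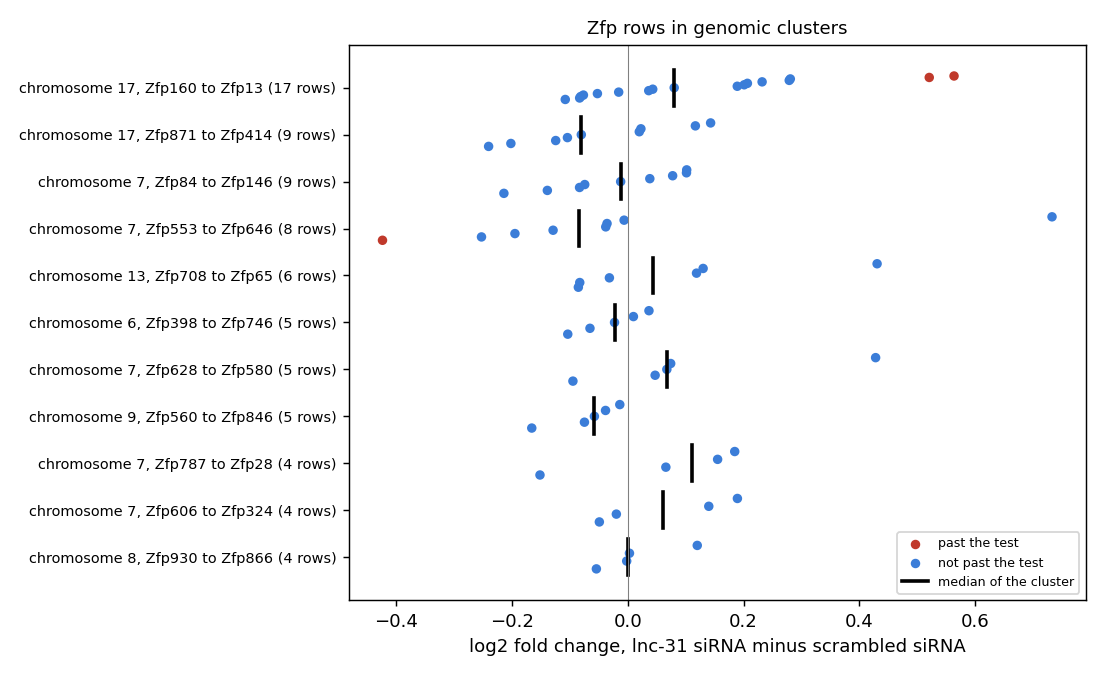
Log2 fold change (horizontal axis, lnc-31 siRNA minus scrambled siRNA) of the Zfp rows in the 11 genomic clusters of 4 or more rows, 1 point per row, red where the row passed the test, with a black bar at the cluster median. The first cluster on chromosome 17 has a median of 0.08 and the second -0.08.

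The promoter windows of Zfp945 and Zfp52, which lie in the same cluster, each had a G and C content of 52.3%. That of Zfp664 had 75% and that of Zfp367 64%. A second Zfp367 window, not printed (chr13:64152324-64152623), had 71.7% and held the E2F, Sp/KLF and CREB/ATF letters. Promoters were found for 178 Zfp genes. Their median number of CG pairs per window was 16, against 22 over the 8467 genes that averaged at least 2 FPKM and 7 over all 27025 genes with a promoter. The Sp/KLF letters stood in 52.2% of the Zfp promoters, against 71.6% of those of genes at 2 FPKM or more and 38.2% of all. The muscle E-box stood in 22.5%, against 17.2% and 18.3%. The ETS letters stood in 11.8%, against 10.3% and 4.31%. The letters of the ZNF143 motif (ACTACAA) stood in 6.74%, against 5.18% and 3.78%, and those of the CREB/ATF motif (TGACGTCA) in 4.49%, against 3.80% and 2.03%. The ATF4 letters (TTGCATCA) stood in 1 Zfp promoter (0.562%), that of Zfp672, against 0.661% and 1.03%. The E-box and CREB/ATF letters read the same on both strands, E2F and Sp/KLF letters can share bases, and a match is no evidence of binding.

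E2F letters stood in 11 of the 178 Zfp promoters (6.18%), against 3.68% of genes at 2 FPKM or more and 1.80% of all. E2F factors drive genes of the G1/S transition. Of these 11 Zfp genes Zfp367 and Zfp688 fell and 9 did not pass the test, where 6.78% of all rows were called lower. Their median log2 fold change was -0.11, from -0.42 (Zfp688) to 0.16 (Zfp444), and 7 were below 0. In 6 of them both lnc-31 siRNA libraries were below both scrambled siRNA libraries (31.7% of all rows), and in 1 both were above (28.5% of all rows). Zfp61 (-0.28, limma adjusted p = 0.057) and Zfp871 (-0.24, 0.057) came next to the called genes, and both passed under quantile normalization and median of ratios scaling (adjusted p = 0.033 to 0.045). Among the 5 genes with a promoter that rose, none held the E2F letters, and all 5 held those of Sp/KLF. The Sp/KLF letters also stood in 5 of the 10 that fell and in 71.6% of genes at 2 FPKM or more. With E2F letters in 6.18% of Zfp promoters, 5 genes are too few to set the genes that rose apart. The motifs were chosen after the calls were known.

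In the first chromosome 17 cluster, 15 genes had a promoter, and the median identity of the 105 pairs was 50% over the aligned columns. The printed windows of Zfp52 and Zfp945 were 51.0% identical (185 of 363 columns). The most alike were Zfp943 and Zfp758 (292 of 308 columns, 94.8%). Zfp943 was at 7.38 and 8.10 FPKM with lnc-31 siRNA and 6.26 and 7.08 FPKM with scrambled siRNA (log2 fold change 0.19, limma adjusted p = 0.18). Zfp758 was at 4.06 and 3.71 FPKM with lnc-31 siRNA and 2.68 and 3.39 FPKM with scrambled siRNA (0.28, adjusted p = 0.15). In both the groups were separate and the difference did not pass.

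In the pull-down 2 of the 210 Zfp rows had a lnc-31 probe peak in the gene body (0.952%), and 2 others had a lacZ probe peak (0.952%). Among 10339 rows matched to RefSeq that averaged at least 2 FPKM these shares were 2.13% for lnc-31 probes and 2.07% for lacZ probes. With 1 library per probe set there is no replicate check and no test. The Zfp gene bodies were shorter, with a median of 17.7 kb against 23.3 kb for single-name rows at that level. Of the 596 lnc-31 probe peaks 4 lay in Zfp genes, and of the 476 lacZ probe peaks 2 did. No Zfp row had peaks of both.

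Zfp1 (chromosome 8, 111643443 to 111671108, mm10, plus strand) held 3 of the 4 lnc-31 probe peaks. The first covered the annotated start (111643401 to 111643600). The second lay 4.91 kb before the annotated end (111666001 to 111666200). The third was 1600 bases wide (111669401 to 111671000) and ended 0.108 kb before the annotated end of the gene. The authors' value for these peaks, read as a p-value from its range, was 0.000161, 0.000205 and 0.000157. The mRNA was at 5.66 and 6.49 FPKM with lnc-31 siRNA and 6.25 and 6.90 FPKM with scrambled siRNA (log2 fold change -0.10, limma adjusted p = 0.48), and the groups overlapped. The other lnc-31 probe peak, 200 bases wide, lay in Zfp617 (chromosome 8, 71926201 to 71926400), and the authors' value for it was 1.62e-05. The row Zfp617,Zfp882 was at 12.1 and 12.8 FPKM with lnc-31 siRNA and 10.3 and 10.96 FPKM with scrambled siRNA (0.21, adjusted p = 0.077), with separate groups. It passed the test under quantile normalization and under median of ratios scaling, where the lowest adjusted p was 0.037.

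The lacZ probe peaks, from the background control, lay in Zfp207 (chromosome 11, 80391401 to 80391600), the most abundant of the Zfp mRNAs, and in Zfp367 (chromosome 13, 64140601 to 64140800). The authors' values were 0.000354 and 0.000782. No other RefSeq gene lies under any of these 6 peaks. None of the 16 Zfp rows past the siRNA test had a lnc-31 probe peak, and 1 of them, Zfp367, had a lacZ probe peak. Among all Zfp rows the share with a peak was 0.952% for lnc-31 probes and 0.952% for lacZ probes. At such shares 16 rows are too few for these counts to say whether peaks and siRNA differences go together. Whether a peak lies in an exon could not be read from gene spans alone.

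**Figure D5:**
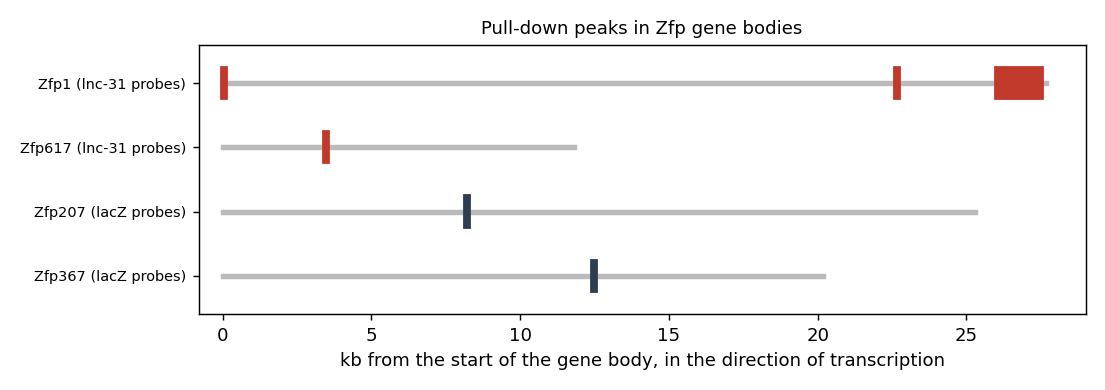
Positions of the 4 lnc-31 probe peaks (red) and the 2 lacZ probe peaks (dark) along the gene bodies of Zfp1, Zfp617, Zfp207 and Zfp367, in kb from the annotated start in the direction of transcription. Zfp1 has peaks at both ends of its gene body, the widest, of 1600 bases, by the 3′ end.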

How the data were processed

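RNA of siRNA-treated C2C12 cells gave FPKM per gene, and the pull-down gave peaks. The FPKM values are as deposited by the authors. Per the submitters' processing notes Bowtie2, CASAVA, TopHat2 and Trimmomatic were used for both, BWA and Cuffdiff for the siRNA libraries, and cutadapt and Picard for the pull-down, on mm10, with no order or versions. The deposited peak lists carry a number per peak, read as a p-value because it lies above 0 and at most 0.01 (peak caller not given in the sources used here). Depth is unknown, so no counting interval is given. There were 0 sample columns without a label.

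The 11500 rows that averaged at least 1 FPKM were put on the log2(FPKM + 1) scale, on which changes at low levels look smaller than they are. They were compared with limma 3.58.1 in R 4.3.3 (trended prior variance, two-sided, Benjamini-Hochberg at 0.05), a fit tested on simulated data. RefSeq (GRCm38.p6, the assembly of mm10) gave the gene bodies, and all 210 Zfp rows matched (Zfp191 as Zfp24). Peaks counted with an overlap of 1 base or more. Promoters were RefSeq windows, aligned with Biopython 1.88.

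The members, lists and tests were chosen with earlier results of these data known. Named were all called members, the 5 most abundant, members with peaks and up to 4 genes of each role list by smallest p. Also named were Trim28, Setdb1, up to 6 other genes of the corepressor and heterochromatin list, both Zfp36 relatives, and rows beside the 2 FPKM limit. Protein classes planned from RefSeq proteins were not analysed here. The alternatives were 2 other pseudocounts, 2 other filters, 2 scalings, a constant prior, a replicate block, leaving out each library, other member limits and other peak rules.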

Additional observations from a re-analysis of the deposited data

How the results depend on the processing

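The 6 Zfp rows that rose and the 10 that fell numbered 5 to 7 and 7 to 12 under the other pseudocounts, filters, scalings, member limits, a constant prior and the replicate block. All 16 were called again under both pseudocounts, both scalings and the filter at 2 FPKM. With no filter, with a constant prior and with the block 14 of them were. Zfp330 (limma adjusted p = 0.055) and Zfp239 (0.051) lost the call with no filter, and Zfp330 (0.074) and Zfp365 (0.058) with a constant prior. With 1 library left out fewer of the 16 were called, and fewer of all rows were called as well. A group is then 1 library assumed to vary like the other. The cause was not tested. The median log2 fold change of the Zfp rows was -0.033 to 0.011 in these fits, above 0 without lnc-31 siRNA 1 (0.0089) or scrambled siRNA 2 (0.011), as was the median of all rows. All 4 peak rules gave 2 and 2 Zfp rows.

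The replicate numbers pair nothing by the labels, and the difference between libraries 1 and 2 correlated at -0.094 between the groups across rows. With the replicate number as a block 6 rose and 8 fell, without Zfp688 and Zfp239.

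Among the genes named in the text and recomputed, the uncalled fold changes that turned sign with 1 library left out were Zfp106 (-0.056 to 0.067), Zfp36 (-0.15 to 0.019), Zfp451 (-0.21 to 0.082), Zfp503 (-0.15 to 0.0035), Zfp53 (-0.086 to 0.055), Zfp667 (-0.023 to 0.15), Zfp706 (-0.020 to 0.020), Zfp830 (-0.019 to 0.083), Zfp961 (-0.20 to 0.00056), Trim28 (-0.018 to 0.030) and the row Gm28557,Rslcan18,Zfp708 (-0.14 to 0.072). Without a known depth, small differences of genes near 2 FPKM were not detectable beyond the spread of 2 libraries.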
